A study of Mus musculus with 3 samples.

Results

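The Hox genes of dorsal skin were described in female BALB/cA mice aged 4 days. Members were all genes measured by a probe set with a single annotated symbol that begins with Hoxa, Hoxb, Hoxc or Hoxd followed by a digit, with Hoxc13 left out. Each gene was read from its brightest probe set by mean over the 3 arrays. This gave 35 members of 18193 named genes, of which 32 encode proteins and 3 are antisense transcripts (Hoxa11os, Hoxb5os and Hoxd3os1). The Hoxa and Hoxb clusters each gave 10 members, the Hoxc cluster 6 and the Hoxd cluster 9. Hox genes with no probe set of their own under this rule were not analysed here. The samples were 2 uncv null mice (uncv -/-) and 1 wild type sister (uncv +/+), born to heterozygous parents, with 1 array each. Uncv is a spontaneous mutation that leaves mice with sparse hair and is known to lie in Rhbdf2, the gene of iRhom2, a rhomboid-like protein without protease activity. The labels name the tissue as dorsal skin and give no position along the back.

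Hox genes encode homeodomain transcription factors that lie in clusters, where the order of genes along the chromosome matches the order of their expression domains from head to tail. Genes at the same place in different clusters are paralogs and share a number. Low numbers are known for anterior domains and the highest numbers for the lumbosacral region, the tail and the distal limb, and fibroblasts of adult skin keep a Hox pattern that reflects where on the body they came from. Here paralog groups 1 to 3 are called anterior, 4 to 8 central and 9 to 13 posterior.

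Levels are log2 RMA values, in which 1 unit is a 2-fold difference, and are given array by array. No detection calls were used, so the samples' sex gave a yardstick for probe sets without target. The 9 probe sets for the Y-linked genes Kdm5d, Eif2s3y and Uty reached at most 3.48 in uncv null 1, 3.50 in uncv null 2 and 3.65 in wild type, and each array's highest value is called its Y-linked ceiling. Probe sets differ in affinity, so the levels of different genes were not ranked against each other. The arrays also differed in their controls. The Actb control read higher at its 3 prime than at its 5 prime end, by 1.23 on uncv null 1, 0.79 on uncv null 2 and 0.655 on wild type. The part of that difference in the Hox readings was not tested. Ribosomal 18S RNA averaged 7.93 on uncv null 1 and 4.26 on uncv null 2, against 3.59 on wild type, over 3 control probe sets, and the 6 BioB spike-in probe sets lay 0.90 higher in uncv null 1 and 0.70 higher in uncv null 2 than in wild type. The Rhbdf2 probe set stood at 6.29 on uncv null 1 and 6.49 on uncv null 2, against 5.83 on wild type, and does not check the genotype labels because its place relative to the mutation was not examined.

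Hoxd8 and Hoxd9 were the members with a mean of at least 5 over the 3 arrays, the level required for the test. Hoxd8, a central gene known from the embryonic trunk, stood at 6.84 on uncv null 1 and 6.98 on uncv null 2, against 7.11 on wild type. Hoxd9, a posterior gene known from limb and trunk, stood at 5.57 on uncv null 1 and 5.64 on uncv null 2, against 5.66 on wild type. Both genes lay slightly below wild type on each uncv null array, and both were far above the Y-linked ceiling on every array. A further 8 members lay above the ceiling on all 3 arrays, at lower values: Hoxa3, Hoxa4, Hoxa5, Hoxb3, Hoxb4, Hoxc4, Hoxc9 and the antisense transcript Hoxd3os1. These 10 members were 28.6% of the 35, beside 65.3% of all named genes above the ceiling on all 3 arrays, and 3 were anterior (of 8), 5 central (of 13) and 2 posterior (of 14). Among the members at the tail end of the clusters, most readings were under the ceiling. The last Hoxc member was Hoxc10, so the end of the Hoxc cluster was not read, and paralog group 12 had 1 member. Of the 14 posterior members 9 were above the ceiling on no array, including every member of paralog groups 10, 12 and 13, and in paralog group 11 Hoxa11 passed it in uncv null 1 alone (3.51). Both members of paralog group 1, Hoxb1 and Hoxd1, which are known from the hindbrain and sensory neurons, were also below it on all 3 arrays. The 12 members below the ceiling on every array (34.3%, beside 25.3% of named genes) ran from 2.40 to 3.63. A value below the ceiling does not show that a gene is off, since a dim or poorly binding probe set gives the same reading. Nor does a value just above it show that a gene is on. Wild type Hoxb4 and Hoxc4 each stood at 3.71, near the wild type ceiling of 3.65. The other Hoxa4 probe set lay under the ceiling on all 3 arrays.

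**Figure D1:**
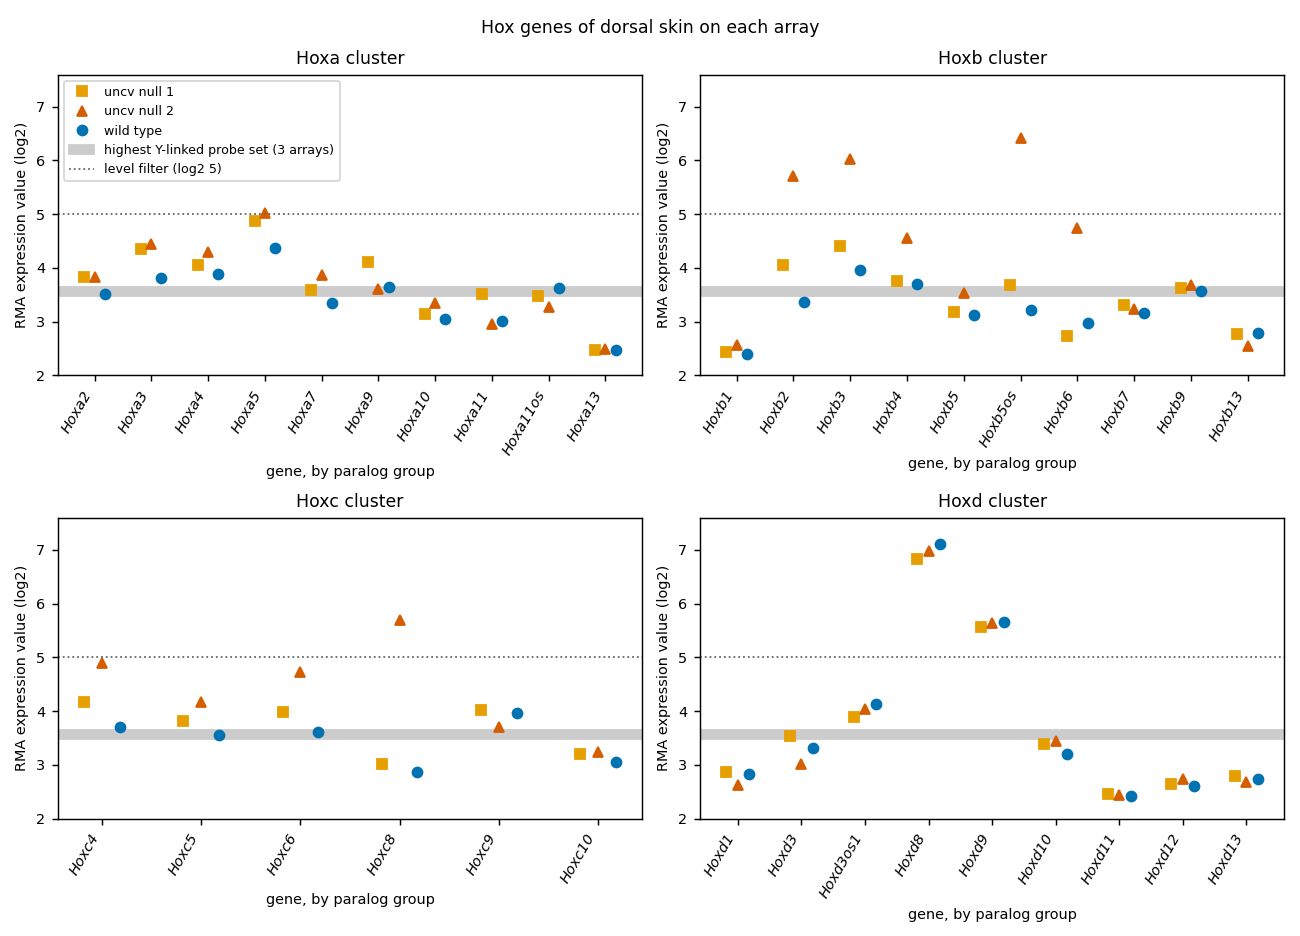
RMA expression values (log2, y axis) of the 35 Hox members in uncv null 1 (squares), uncv null 2 (triangles) and wild type (circles), 1 panel per cluster with genes in order of paralog group. The grey band spans the Y-linked ceilings of the 3 arrays (3.48 to 3.65) and the dotted line marks a value of 5; Hoxd8 and Hoxd9 lie above it on all arrays, and Hoxa5, Hoxb2, Hoxb3, Hoxb5os and Hoxc8 on uncv null 2 alone.

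The promoters of the 2 genes above the level filter are shown with those of Hoxb4 and Hoxc4, the 2 other members with a promoter in the reference table that lay farthest above uncv null 1 in uncv null 2. Sequences are from RefSeq (GRCm38.p6), run from 250 bases before to 50 after the annotated start, and were matched by symbol for 21 of 35 members. Capitals mark the letters CCAAT, or ATTGG where they lie on the other strand. The promoters lie at chr2:74704365-74704664 (Hoxd8, + strand), chr2:74697513-74697812 (Hoxd9, + strand), chr11:96318017-96318316 (Hoxb4, + strand) and chr15:103034145-103034444 (Hoxc4, + strand).
Hoxd8: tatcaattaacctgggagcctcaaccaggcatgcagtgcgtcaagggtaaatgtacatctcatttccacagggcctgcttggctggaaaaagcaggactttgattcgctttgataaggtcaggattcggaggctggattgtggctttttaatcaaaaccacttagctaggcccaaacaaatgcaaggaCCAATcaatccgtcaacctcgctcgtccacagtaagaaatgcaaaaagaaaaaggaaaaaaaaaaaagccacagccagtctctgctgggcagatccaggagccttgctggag
Hoxd9: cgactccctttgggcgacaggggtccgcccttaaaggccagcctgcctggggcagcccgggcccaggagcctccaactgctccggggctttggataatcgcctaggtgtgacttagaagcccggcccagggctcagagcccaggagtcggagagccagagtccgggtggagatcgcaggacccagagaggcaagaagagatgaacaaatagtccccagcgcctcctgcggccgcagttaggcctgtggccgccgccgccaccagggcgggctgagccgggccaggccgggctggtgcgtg
Hoxb4: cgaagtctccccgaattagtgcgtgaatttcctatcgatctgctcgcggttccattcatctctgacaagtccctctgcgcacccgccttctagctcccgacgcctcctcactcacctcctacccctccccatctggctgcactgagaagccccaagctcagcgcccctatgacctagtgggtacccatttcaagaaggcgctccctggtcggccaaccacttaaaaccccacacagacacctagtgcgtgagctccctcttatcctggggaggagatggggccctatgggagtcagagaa
Hoxc4: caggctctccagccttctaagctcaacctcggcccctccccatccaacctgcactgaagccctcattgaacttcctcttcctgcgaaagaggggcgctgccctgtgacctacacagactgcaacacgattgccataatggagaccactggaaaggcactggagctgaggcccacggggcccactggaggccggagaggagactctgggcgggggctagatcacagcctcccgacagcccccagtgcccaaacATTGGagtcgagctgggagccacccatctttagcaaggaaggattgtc
The neighbours Hoxd8 and Hoxd9 differ in base composition, with 46.7% G and C in the Hoxd8 window and 68.3% in the Hoxd9 window. The Hoxb4 and Hoxc4 windows hold 58.0% and 60.3%. CCAAT was found once each in the Hoxd8 and Hoxc4 windows, and in 11 of the 21 members with a promoter, beside 37.4% of all 32851 promoters of the same length. The letters TATAAA, searched on both strands, were in none of the 4 windows, in 2 of the 21 members and in 13.6% of all promoters. The letters TGATNNAT, known as a joint site of Hox and Pbx proteins, were in none of the 4 windows, in 2 of the 21 members (Hoxa2 and Hoxb1) and in 8.85% of all promoters. No motifs overlapped in the 4 windows.

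Between the genotypes, 0 Hox genes passed. In the test with limma across the 8456 genes with a mean of at least 5, the difference was -0.20 ± 0.26 for Hoxd8 and -0.06 ± 0.26 for Hoxd9 (moderated SE, 2 against 1 arrays, limma adjusted p = 0.9996 for both). Neither had an unadjusted p under 0.05, as 2.9% of tested genes did, and the share called after adjustment was 0%. With no filter on level the fit covered all 35 members and again called 0 (smallest adjusted p = 0.9999, 0% of 18193 genes called). In that fit 4 members had an unadjusted p under 0.05, beside 4.03% of all named genes, and all 4 were higher in uncv null skin. They were Hoxa3 at 0.58 ± 0.21, Hoxa5 at 0.59 ± 0.22, Hoxc4 at 0.83 ± 0.32 and Hoxb2 at 1.51 ± 0.60 (limma adjusted p = 0.9999 for each). Hoxa3 stood at 4.34 on uncv null 1 and 4.44 on uncv null 2, against 3.81 on wild type. Hoxa5, known from the neck and upper trunk, stood at 4.87 on uncv null 1 and 5.03 on uncv null 2, against 4.36 on wild type. For these 2 genes the uncv null arrays lay close together and above wild type, Hoxa3 by 0.53 on uncv null 1 and 0.63 on uncv null 2 and Hoxa5 by 0.51 and 0.67. All 18 bio and cre spike-ins averaged 0.70 above wild type on uncv null 1 and 0.43 on uncv null 2, from BioB as given above down to Cre at 0.42 and 0.09, and the part of that offset was not tested. The Hoxa3 value depended on its probe set. The next brightest one stood at 3.80 on uncv null 1 and 3.74 on uncv null 2, against 3.89 on wild type, and over the mean of all probe sets the difference was 0.14 for Hoxa3 and 0.85 for Hoxa5. The Hoxc4 mean rested more on uncv null 2, which lay 1.19 above wild type, than on uncv null 1 at 0.47. The wild type value of Hoxb2 was under the ceiling, and against that ceiling Hoxb2 was at least 0.41 higher on uncv null 1 and at least 2.05 higher on uncv null 2. The spread was measured between the 2 uncv null arrays alone and moderated over all probe sets fitted, and wild type is assumed to vary as they do.

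No member lay at least 1 log2 unit from wild type on the same side on each of the uncv null arrays, beside 0.126% of named genes higher and 0.176% lower by that rule. By any size, both uncv null arrays exceeded wild type in 22 of 35 members and lay under it in 5, beside 33.9% and 29.2% of named genes. Both counts include some of the 12 members under the Y-linked ceiling on every array, whose readings give no gap, and so do the medians that follow. The median member stood 0.15 above wild type in uncv null 1 and 0.19 above it in uncv null 2, while the median of all named genes was at 0.03 and -0.005.

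The arrays differed in their Hox pattern along another line. Uncv null 2 stood apart from both other arrays at some Hoxb and Hoxc genes of paralog groups 2 to 8. There uncv null 1 lay nearer to wild type than to uncv null 2, from 0.69 above wild type at Hoxb2 to 0.24 below it at Hoxb6. In uncv null 2, 7 members were at least 1 log2 unit higher than in wild type and 0 lower, beside 1.12% of named genes higher and 1.33% lower. They were Hoxb2, Hoxb3, Hoxb5os, Hoxb6, Hoxc4, Hoxc6 and Hoxc8. Against uncv null 1, of the same genotype, 5 members were that much higher in uncv null 2 and 0 lower, beside 0.676% and 0.687% of named genes, namely the same genes without Hoxc4 and Hoxc6. In uncv null 1 no member was at least 1 unit from wild type in either direction, beside 0.291% of named genes each way. Over the 35 members the SD of the log2 differences was 0.24 for uncv null 1 minus wild type, 0.90 for uncv null 2 minus wild type and 0.82 for uncv null 2 minus uncv null 1. Over all named genes the SDs of the same pairs were 0.28, 0.39 and 0.35. These 3 pairs share arrays, so they are not independent of each other, and single arrays allow no test.

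**Figure D2:**
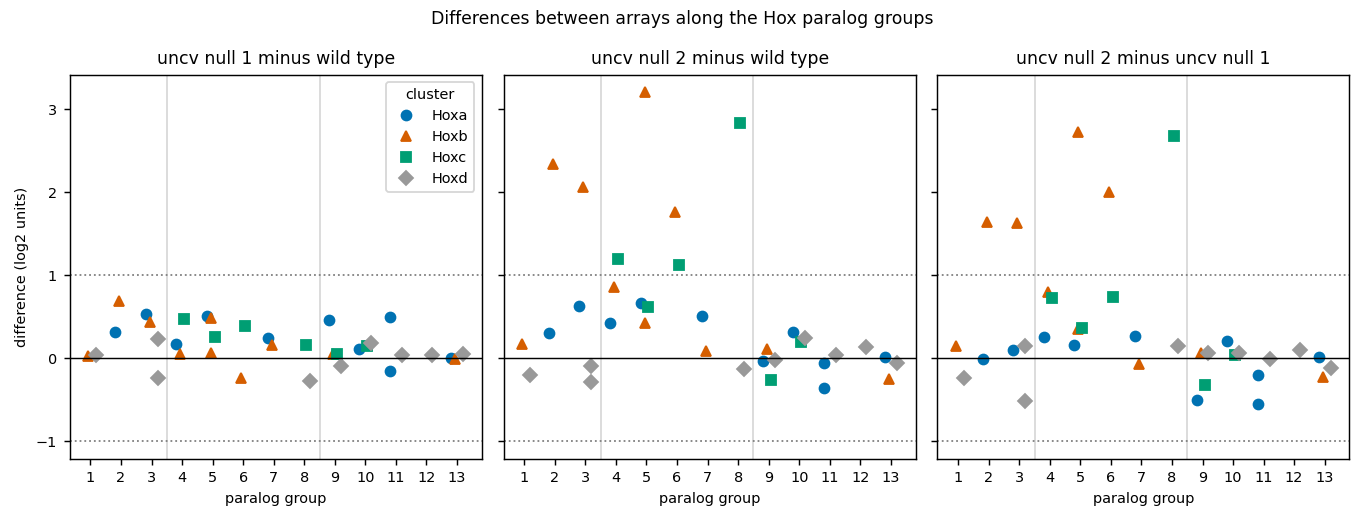
Log2 differences between arrays (y axis) of the 35 Hox members against paralog group (x axis), for uncv null 1 minus wild type, uncv null 2 minus wild type and uncv null 2 minus uncv null 1, with 1 symbol per cluster. Dotted lines mark 1 log2 unit and grey lines part the anterior, central and posterior groups; in the first panel no gene passes 1 unit, and in the others Hoxb and Hoxc genes of groups 2 to 8 stand highest.

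In the Hoxb cluster the genes past 1 log2 unit in uncv null 2 were Hoxb2, Hoxb3, Hoxb6 and the antisense transcript Hoxb5os. Hoxb2, known from hindbrain patterning, stood at 4.06 on uncv null 1 and 5.71 on uncv null 2, against 3.37 on wild type. Hoxb3 stood at 4.40 on uncv null 1 and 6.03 on uncv null 2, against 3.96 on wild type. Both were intermediate in uncv null 1, nearer to wild type. Hoxb6, known from the trunk and posterior limb field, stood at 2.74 on uncv null 1 and 4.74 on uncv null 2, against 2.98 on wild type. Hoxb5os, which overlaps Hoxb5 and Hoxb6 in the reference table, had the widest gap at 3.69 on uncv null 1 and 6.41 on uncv null 2, against 3.21 on wild type. Which strand its probe set reads was not checked. Hoxb4 had a smaller gap in the same direction, at 3.76 on uncv null 1 and 4.56 on uncv null 2, against 3.71 on wild type. Hoxb5 stood at 3.19 on uncv null 1 and 3.54 on uncv null 2, against 3.12 on wild type, readings that all lay under the wild type ceiling of 3.65 and give no gap. Hoxb1, Hoxb7, Hoxb9 and Hoxb13 differed by at most 0.25 between any pair of arrays. The Hoxb cluster lies on chromosome 11, as does Rhbdf2, in the reference table.

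In the Hoxc cluster all members from Hoxc4 to Hoxc8 were highest in uncv null 2. Hoxc8, known from thoracic patterning of the skeleton and motor neurons, stood at 3.02 on uncv null 1 and 5.70 on uncv null 2, against 2.87 on wild type. Its values in uncv null 1 and wild type were below the Y-linked ceiling. Hoxc6, also known from the thoracic region, stood at 3.98 on uncv null 1 and 4.72 on uncv null 2, against 3.60 on wild type. Hoxc4 stood at 4.17 on uncv null 1 and 4.90 on uncv null 2, against 3.71 on wild type, and Hoxc5 at 3.82 on uncv null 1 and 4.18 on uncv null 2, against 3.56 on wild type. Hoxc4, Hoxc5 and Hoxc6 had the order uncv null 2, uncv null 1, wild type from high to low, with wild type under the ceiling for Hoxc5 and Hoxc6. The pattern ended at Hoxc9, which stood at 4.03 on uncv null 1 and 3.70 on uncv null 2, against 3.97 on wild type. Hoxc10 was below the ceiling throughout.

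Where a lower value lay under the ceiling, the gap is a bound taken from the ceiling of that array. On that reckoning Hoxb5os was at least 6.78-fold higher in uncv null 2 than in wild type, Hoxb2 at least 4.15-fold, Hoxc8 at least 4.13-fold, Hoxb6 at least 2.12-fold and Hoxc6 at least 2.09-fold. Hoxb3 and Hoxc4, above the ceiling on all arrays, were 4.18-fold and 2.28-fold higher. The wild type value of Hoxc4 was close to the ceiling, at 3.71 against 3.65. All 7 genes stayed past 2-fold against the bound, as did all 5 against uncv null 1. The smallest of the 7 gaps was that of Hoxc6, at 1.12 log2 units as read and 1.07 against the ceiling, and the next member below the threshold was Hoxb4 at 0.85.

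The Hoxa and Hoxd clusters differed less. No Hoxa member lay 1 log2 unit from another array by its chosen probe set. Hoxa2, Hoxa4 and Hoxa7 exceeded wild type on both uncv null arrays, by 0.31, 0.17 and 0.24 on uncv null 1 and by 0.30, 0.42 and 0.51 on uncv null 2, with the wild type readings of Hoxa2 and Hoxa7 under the ceiling. In the Hoxd cluster every member lay within 0.52 of itself across the arrays, and 2 of 9 were highest in uncv null 2, against 8 of 10 in Hoxb, 5 of 6 in Hoxc and 6 of 10 in Hoxa. Over all named genes 34.7% were highest in uncv null 2. The 2 Hoxd members counted, Hoxd10 and Hoxd12, were under the ceiling on every array, where readings give no order. The counts of the other clusters also include such members. By class, uncv null 2 minus uncv null 1 had a median of 0.12 over 8 anterior members, 0.36 over 13 central members and 0.005 over 14 posterior members, beside -0.04 over all named genes. Uncv null 2 minus wild type had medians of 0.24, 0.67 and -0.005 over the same classes. Central genes were higher in uncv null 2 than in uncv null 1 in 12 of 13 cases and posterior genes in 7 of 14, beside 45% of all named genes. The classes are not compared on equal terms, since 9 of 14 posterior members and 1 of 13 central members were above the ceiling on no array. Readings there give no gap. By their chosen probe sets, posterior genes differed by at most 0.55 between any pair of arrays. The other probe set of the posterior gene Hoxa9 lay 1.37 higher in uncv null 2 than in uncv null 1.

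Other probe sets of the same genes gave a mixed picture. The 13 members with several probe sets had 17 further ones, of which 10 had the sign of the chosen probe set for uncv null 2 minus uncv null 1. Of the 7 genes named above, Hoxb3 and Hoxc6 could be read a further time. The other Hoxb3 probe set stood at 3.77 on uncv null 1 and 4.06 on uncv null 2, against 3.58 on wild type, so its gap had the same direction and was smaller. Both other Hoxc6 probe sets were also highest in uncv null 2, by 0.54 and 0.72 over wild type, short of 1 unit. With all probe sets of a gene averaged, Hoxc6 lay 0.79 above wild type in uncv null 2 and left the 7, while Hoxa5 at 1.19 joined them, so 6 genes were shared. Against uncv null 1, Hoxb3 averaged 0.96 higher and left the 5, and the other 4 remained. No share of all named genes was counted with probe sets averaged. A second Hoxa5 probe set stood at 3.78 on uncv null 1 and 4.98 on uncv null 2, against 3.27 on wild type, a wider gap between the uncv null arrays than the chosen one showed. Hoxa9 was contradictory. Its chosen probe set stood at 4.11 on uncv null 1 and 3.61 on uncv null 2, against 3.65 on wild type, while the other stood at 2.77 on uncv null 1 and 4.14 on uncv null 2, against 2.83 on wild type, so no direction is given for this gene. The chosen probe sets of Hoxa3, Hoxa4, Hoxa5 and Hoxc6 carry the array's marks for probes shared with other transcripts. A probe set shared by Hoxb7 and Hoxb8 stood at 3.60 on uncv null 1 and 4.07 on uncv null 2, against 3.28 on wild type.

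**Figure D3:**
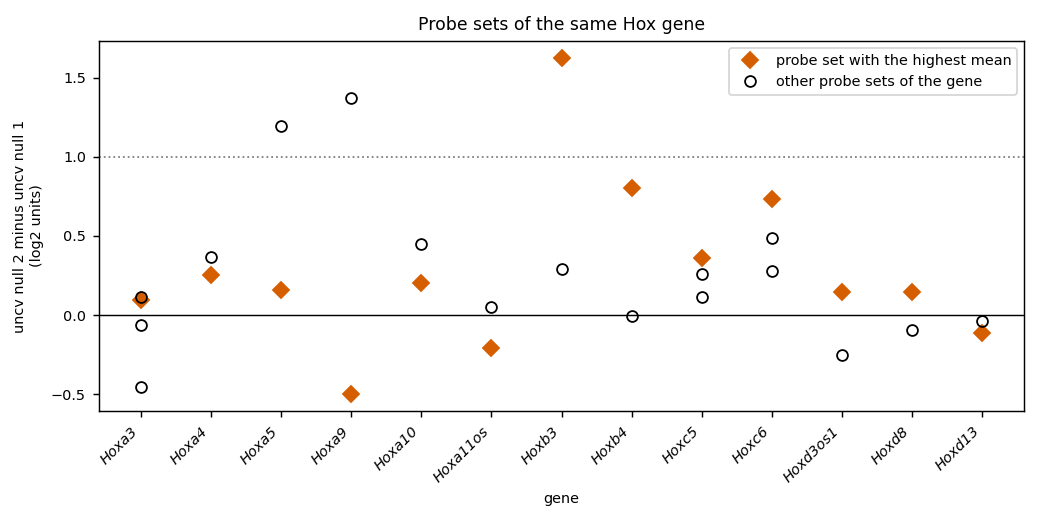
Uncv null 2 minus uncv null 1 (log2 units, y axis) for each probe set of the 13 Hox members that have several, with the chosen probe set as a diamond and the others as open circles. The other probe sets of Hoxa5 and Hoxa9 lie above 1 unit (1.20 and 1.37), and the chosen and other probe sets of Hoxa9 lie on opposite sides of 0.

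Genes that work with or upstream of Hox proteins were set beside them, and limma called 0 of the 34 tested members of the cofactor, chromatin, inducer and positional lists, and 0 had an unadjusted p under 0.05. Of 9 Hox cofactors of the TALE homeodomain class, which bind DNA jointly with Hox proteins, 4 were tested. Both uncv null arrays exceeded wild type in 0 of them and lay under it in 1, beside 38.8% and 26.4% of tested genes. Pbx2 stood at 6.47 on uncv null 1 and 6.37 on uncv null 2, against 6.77 on wild type. Meis1 and Pbx3 were lower in uncv null 2 than in uncv null 1, by -0.69 and -0.82. Relative to wild type the list had a median of 0.27 on uncv null 1 and -0.21 on uncv null 2. Of 22 chromatin regulators of the clusters (Polycomb and Trithorax proteins among them) 18 were tested, with medians of 0.09 and -0.04. Of the 18, 7 were higher and 6 lower in both arrays, beside the same 38.8% and 26.4% of tested genes. The histone methyltransferase gene Kmt2a, which maintains Hox expression, lay above wild type by 0.62 on uncv null 1 and 0.26 on uncv null 2, Ezh1 by 0.42 on both and the demethylase gene Kdm6b differed by 0.74 and -0.11. Of 14 genes listed as upstream inducers, not all of which raise Hox expression, only Egr2, Cyp26b1 and Rarg were tested. Of these, 1 (Egr2, at 0.12 and 0.70) was higher in both arrays, beside 38.8% of tested genes.

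Of 25 other positional regulators of skin and limb 9 were tested, with 0 called by limma. Both uncv null arrays exceeded wild type in 0 of them and lay under it in 5, beside 38.8% and 26.4% of tested genes, while Irx3, Irx5, Msx2 and Twist1 lay on different sides of wild type on the 2 arrays. The 9 genes had medians of -0.22 in uncv null 1 and -0.65 in uncv null 2. Tbx15, a T-box gene that patterns dorsal skin, stood at 6.91 on uncv null 1 and 6.39 on uncv null 2, against 7.35 on wild type (-0.70 ± 0.32, limma adjusted p = 0.9996). Its relative Tbx18 stood at 5.23 on uncv null 1 and 4.63 on uncv null 2, against 5.63 on wild type (-0.70 ± 0.34, limma adjusted p = 0.9996), and the homeobox gene Shox2 at 5.97 on uncv null 1 and 5.20 on uncv null 2, against 6.15 on wild type. Among the dim genes of this list Zic1, a zinc finger gene of the dorsal midline, stood at 4.22 on uncv null 1 and 5.995 on uncv null 2, against 4.32 on wild type, and was singled out after its values were seen. It shares with Hoxc8 and Hoxb6 the high value in uncv null 2 alone.

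Cell type markers also differed between the arrays in their medians, though limma called 0 of the tested genes in each marker list. The skeletal muscle markers had a median of -0.80 in uncv null 1 and -1.60 in uncv null 2 relative to wild type over 10 genes. Of these, 8 were lower in both, beside 26.4% of tested genes. Their summed log2 values were 82.0 on uncv null 1 and 73.9 on uncv null 2, against 89.5 on wild type. Adipocyte markers were at 0.49 and 0.92 over 8 genes, all higher in both, beside 38.8% of tested genes. Their sums were 70.1 on uncv null 1 and 75.5 on uncv null 2, against 66.5 on wild type over the 9 measured genes. Dermal fibroblast markers were at -0.07 and -0.49 over 9 genes, keratinocyte markers at 0.13 and 0.24 over 10, hair follicle markers at 0.13 and 0.39 over 10, endothelial markers at -0.26 and -0.31 over 6, Schwann cell and nerve markers at -0.44 and -0.89 over 3, and macrophage and mast cell markers at 0.09 and 0.03 over 8. The muscle gene Myh3, the embryonic myosin heavy chain, stood at 8.89 on uncv null 1 and 6.57 on uncv null 2, against 9.76 on wild type. Keratinocyte and fibroblast markers such as Krt14 (11.6, 12.0 and 11.5 in uncv null 1, uncv null 2 and wild type) and Col1a1 (11.7, 11.1 and 11.8) were bright on all arrays. In whole skin, more cells of a type and more RNA per cell cannot be told apart, and the part of these markers in the Hox differences was not tested.

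**Figure D4:**
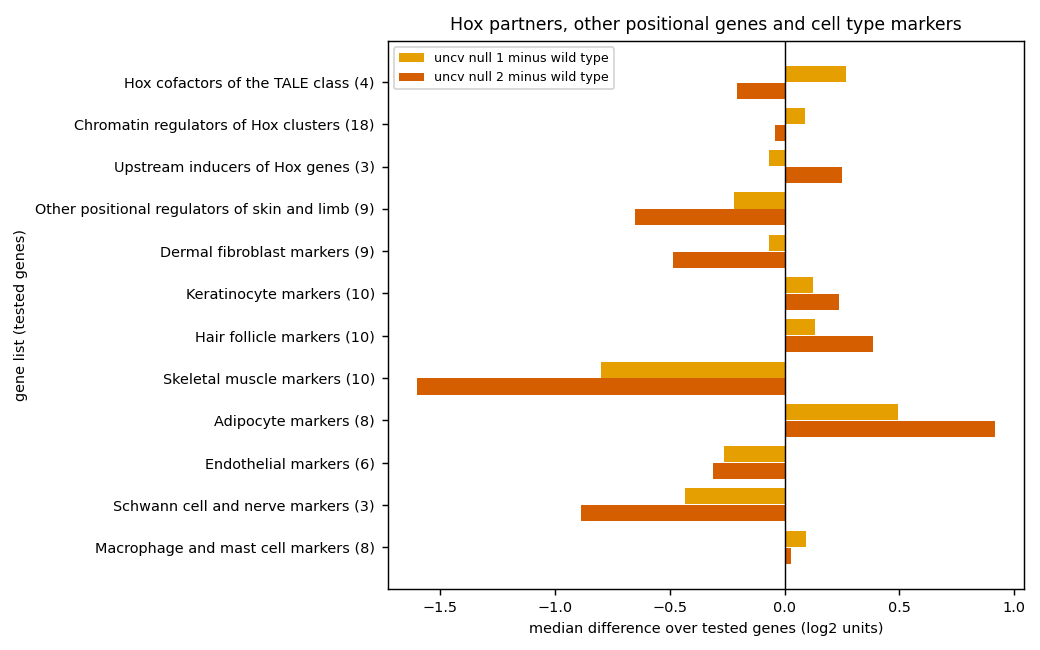
Median log2 difference from wild type (x axis) over the tested genes of each list (number in brackets), for uncv null 1 (light bars) and uncv null 2 (dark bars). Skeletal muscle markers lie lowest (-0.80 and -1.60) and adipocyte markers highest (0.49 and 0.92), and uncv null 2 lies farther from 0 than uncv null 1 in both.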

How the data were processed

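Total RNA of dorsal skin was measured on 1-colour biotin-labelled arrays, with 2 uncv null mice and 1 wild type mouse. The authors deposited log2 values made with RMA, as the submitters' processing notes record; software, version and background model: not given in the sources used here. RMA forces a common distribution on the arrays and so hides any shift shared by every transcript. The number of arrays limits the precision. No scanner files were used here.

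The table held 45101 probe sets, of which 64 controls were kept apart. All 35 members matched the reference table (GRCm38.p6) by symbol. Differences are uncv null minus wild type and were tested in R 4.3.3 using limma 3.58.1 (lmFit, eBayes without trend, Benjamini-Hochberg adjustment over all 13559 probe sets with a mean of at least 5, threshold 0.05), with 1 residual degree of freedom per probe set. The fit was also run on data simulated from its own variance model. That checks the size of the estimates, and does not test whether the model holds for these arrays. Differences between single arrays had no test. Members with a mean of at least 5, or above the Y-linked ceiling on every array, were to be named, with 3 genes per other list; others are named where they passed 1 log2 unit or bear on a cluster's pattern, after their values were seen. The members and lists were chosen with earlier results of these data known. Protein sequences were not used here. Alternatives changed the filter, the normalization, the probe set rule or the variance model, or left out an uncv null array. P-values rest on the spread between the 2 uncv null arrays, moderated toward a variance shared over all probe sets fitted (prior degrees of freedom 4.75 in the main fit). The wild type array adds no spread. The labels describe the arrays as separate mice.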

Additional observations from a re-analysis of the deposited data

How the results depend on the processing

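Limma called 0 Hox genes under every alternative run. These were no filter, a mean of at least 6, median centring, quantile normalization, the mean of all probe sets of a gene, an intensity trend, a robust fit, and no filter with a trend (added after seeing the data). In all but the last of these limma called 0 of all genes fitted. With a level filter the fit held 2 Hox members, or 1 with a mean of at least 6, so its 0 does not speak for the other members. In that last fit 6 of 35 members had an unadjusted p under 0.05, beside 655 of 18193 genes. It called 4 of the 18193 genes, 0 of them Hox genes. The level filter passed 2 members, and a mean of at least 6 left 1 (Hoxd8). With no filter the median Hox difference turned to 0.21, from 35 members, where the 2 tested members gave -0.13; by class it was 0.20 (anterior, where the filter left no gene), 0.45 (central, against -0.20 from Hoxd8 alone) and 0.057 (posterior, against -0.059 from Hoxd9 alone). Leaving out an uncv null array left 2 arrays and no test, with a median Hox difference between -0.18 (without uncv null 2) and -0.08 (without uncv null 1).

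The counts between single arrays depended on size and filter, in settings chosen after seeing the data. At 0.5 log2 units, 3 members were higher in uncv null 1 than in wild type, 12 in uncv null 2 than in wild type, and 8 higher and 3 lower in uncv null 2 than in uncv null 1. The share of all named genes was counted at 1 log2 unit and with the brightest probe sets alone. The counts at 0.5 and those over averaged probe sets therefore have no background beside them. With a mean of at least 5, 0 were higher in uncv null 2 than in either other array, since 2 members remained. With the mean of all probe sets of a gene, 7 were higher in uncv null 2 than in wild type (6 of them shared with the brightest probe sets) and 4 instead of 5 than in uncv null 1, and the mean difference from wild type was 0.14 instead of 0.58 for Hoxa3, 0.85 instead of 0.59 for Hoxa5 and 0.79 instead of 1.25 for Hoxb3. No paired analysis was possible because the design has a single wild type array.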
